A study of Mus musculus with 19 samples.

Results

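The naive pluripotency network is described here through 10 of its genes, Klf2, Klf4, Klf5, Klf17, Esrrb, Tfcp2l1, Tbx3, Zfp42, Prdm14 and Dppa5a, in single mouse embryos. The genes were chosen by symbol, and each matched 1 of the 53379 gene rows of the count table. The embryos carried the strain label B6D2F1, were made by in vitro fertilisation, were grown in KSOM, a simple medium for preimplantation embryos, and were taken at 96 hours after insemination. Parents heterozygous for an Alyref deletion gave 2 Alyref KO morulae, with 3 morulae and 3 blastocysts that lack the KO label. Parents heterozygous for a Gabpb1 deletion gave 3 morulae labelled Gabpb1 KO, with 2 morulae and 3 blastocysts that lack it. Wild-type (WT) parents gave 3 blastocysts and no morula used here. Alyref encodes an adaptor for mRNA export, and Gabpb1 a subunit of the ETS-family transcription factor GABP.

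The submitters told KO embryos apart in the same libraries by missing reads over the deletion, so the genotype call and the expression values share their data. An embryo of either cross without the KO label may be wild-type or heterozygous and is called WT/het here. No blastocyst was labelled KO. Every embryo of a cross came from heterozygous parents, so the WT/het groups may be mixtures. Embryos were whole, and in a whole embryo fewer cells of a type and less RNA per cell cannot be told apart. Nothing in the labels ties embryos to litters or fertilisation days, and p-values measure the spread between these embryos. Cross and any batch cannot be told apart.

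The naive state is the pluripotency of the preimplantation epiblast and of mouse embryonic stem cells kept with LIF and inhibitors of MEK and GSK3. It is held by a set of interlocking transcription factors around Oct4, Sox2 and Nanog. LIF acts through STAT3 on Klf4 and Tfcp2l1, and GSK3 inhibition relieves repression of Esrrb, Klf2 and Tfcp2l1 by Tcf7l1. Several of these genes are already transcribed in the morula, before the inner cell mass and the trophectoderm, the outer layer that forms placenta, separate.

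Libraries held between 7.49 and 31.5 megacounts of gene reads (median 13.6), and spike-in (ERCC) reads made up 0.501 to 1.95% of the total. Levels are CPM, counts per megacount of a library after TMM scaling, which evens out differences in composition. Differences were tested with edgeR's quasi-likelihood test over all 18410 genes above a low-level filter, and a gene is called, or passes, when its Benjamini-Hochberg adjusted p is under 0.05. Alyref was at 47.8 and 58.5 CPM in the 2 Alyref KO morulae and at 161 to 291 CPM in the 3 WT/het morulae of its cross, lower by 2.05 on the log2 scale (SE 0.30, edgeR adjusted p = 0.0227). Gabpb1 was at 78.2, 259 and 151 CPM in the morulae labelled Gabpb1 KO and at 93.8 and 83.3 CPM in the WT/het morulae of that cross. Gene counts therefore did not show lower Gabpb1 in the libraries labelled KO, and the deleted region cannot be seen in counts per gene, so directions for that group rest on the label. Of 6 cumulus and granulosa cell markers, Fshr, Cyp19a1 and Amh were at 3 counts or fewer in every embryo, and the 6 summed to 0.185 to 3.37 CPM. Among 4 blood and fibroblast markers Ptprc and Hbb-bs were at that floor, and the 4 summed to 0 to 2.51 CPM.

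The 10 genes spanned a wide range of levels when counts were divided by exon length (FPKM, counts per kilobase of merged exons and per megacount of the library). Dppa5a, an RNA-binding protein gene of pluripotent cells, had a mean of 4324 FPKM over the 19 embryos and ranked 10 among the 18410 genes tested. Zfp42, which encodes the marker REX1, followed at 128 FPKM, then Klf5 at 59.3 and Tfcp2l1 at 29.1. Klf2 had 21.8 FPKM, Klf4 10.02, Tbx3 6.84 and Klf17 3.62. Esrrb was lowest, with a mean of 1.74 FPKM, and Prdm14, just above it, ran from 0.13 to 7.15 FPKM. The range of Dppa5a over embryos, 1661 to 9637 FPKM, lay above that of Zfp42, 73.0 to 171 FPKM, whereas each later neighbour in this order overlapped the one before it.

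**Figure D1:**
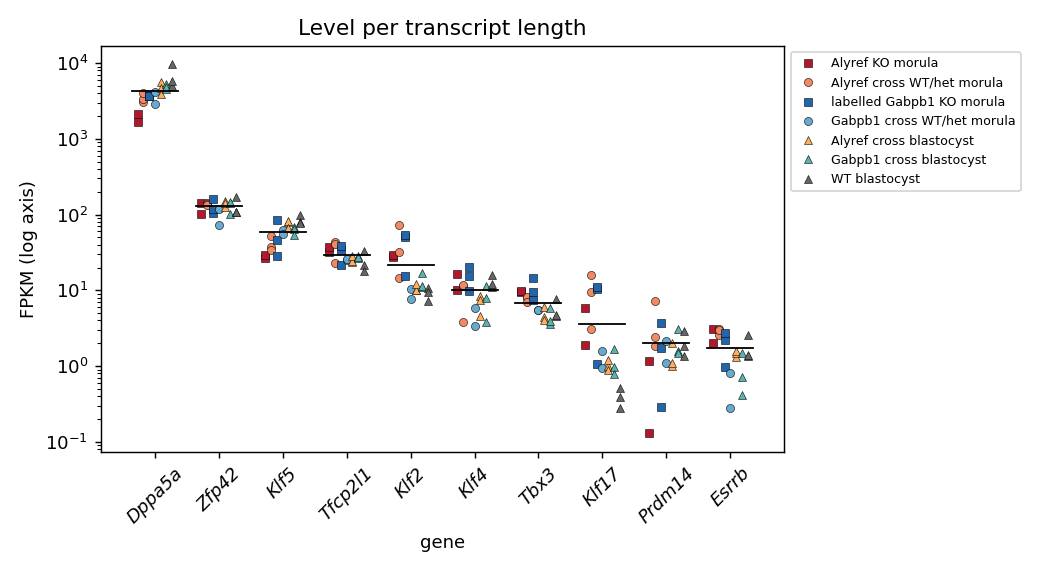
FPKM (log axis) of each gene in every embryo, genes ordered by their mean (black bar), with colours and symbols for the 7 groups. Dppa5a stands above all others, and Klf17 and Prdm14 spread most widely between embryos.

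The genes differed as much in how even they were between embryos. Zfp42 differed 2.34-fold and Tfcp2l1 2.42-fold between the lowest and the highest of the 19 embryos on the CPM scale. For Klf17 the same ratio was 56.8, for Prdm14 55.0, for Esrrb 11.2 and for Klf2 10.2. The coefficient of variation of Klf17 was 86.0% over the 10 morulae and 50.5% over the 9 blastocysts, and that of Klf2 was 68.9% and 23.3%. Prdm14 rested on as few as 5 counts in 1 embryo, so its spread includes counting error.

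**Figure D2:**
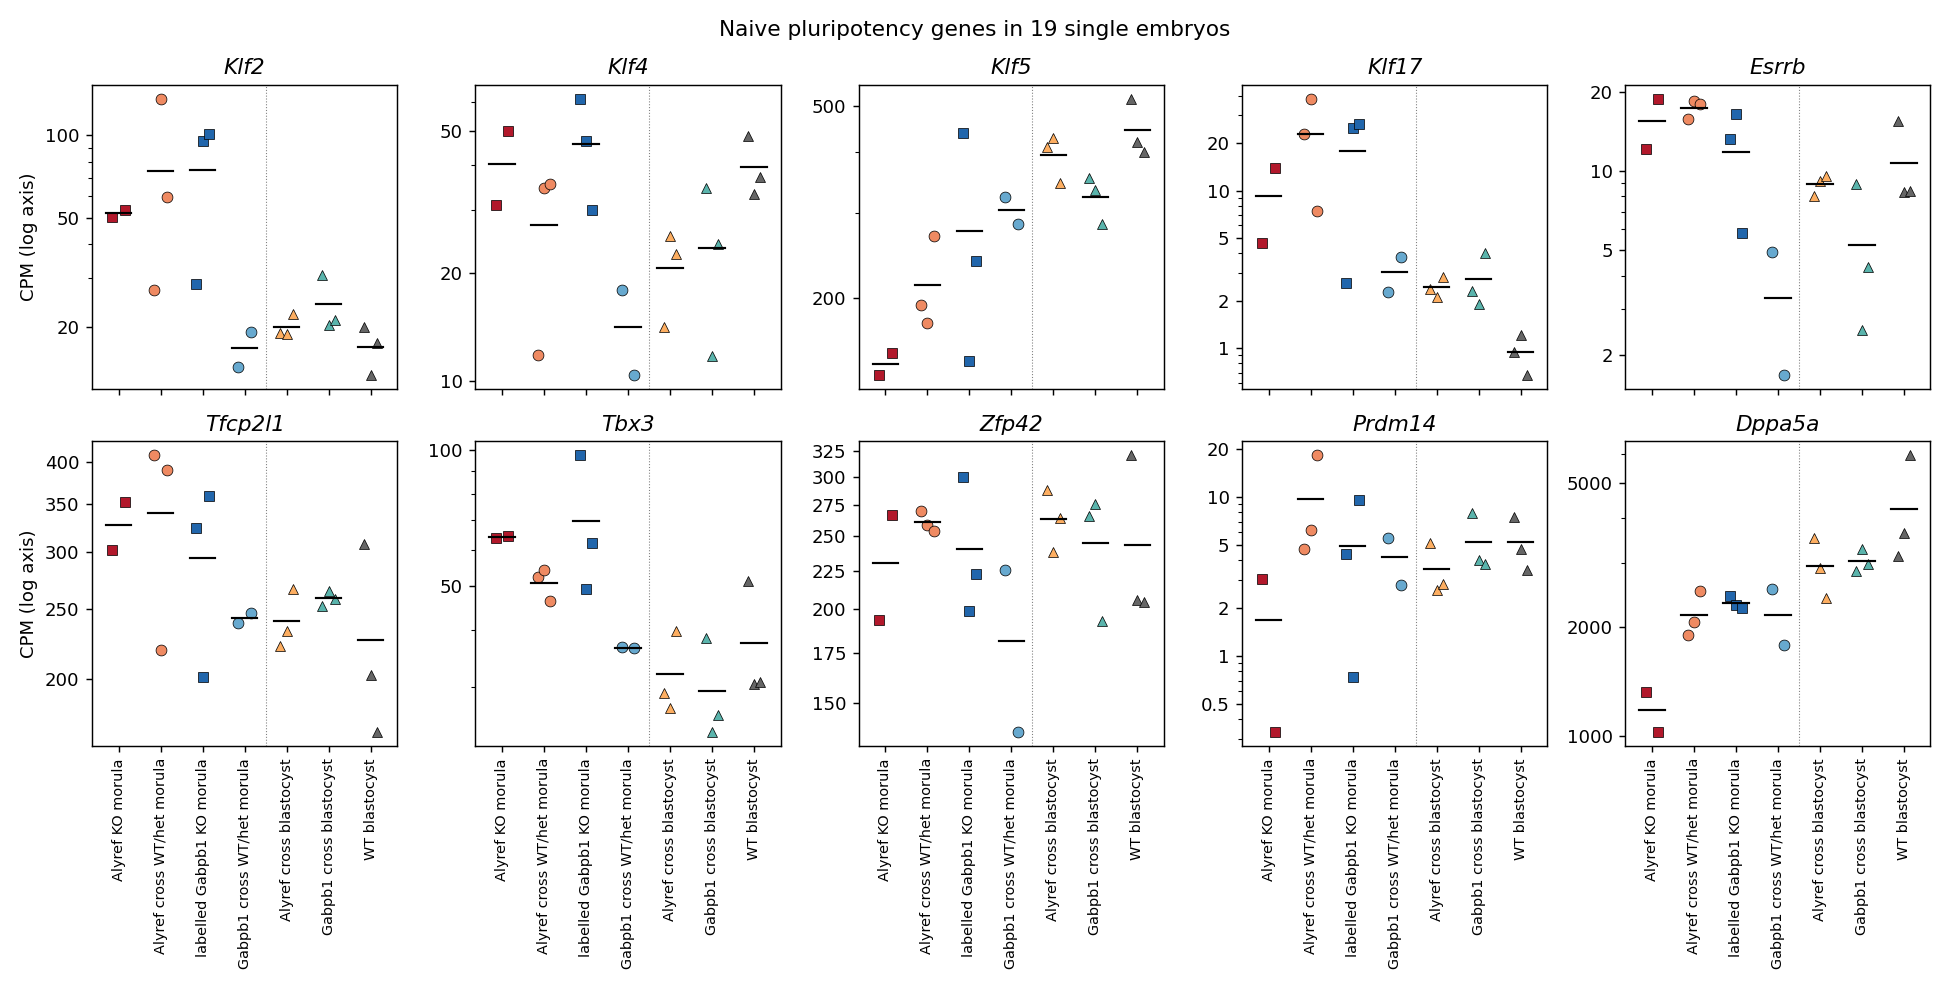
CPM (log axis, own scale for each gene) in every embryo by group. Points are embryos, black bars are group means, and the dotted line separates morulae from blastocysts; Klf2 and Klf17 are low in the 2 Gabpb1-cross WT/het morulae and in all blastocysts, and Dppa5a is lowest in the 2 Alyref KO morulae.

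Promoter sequences are shown for Klf2 and Klf17, the 2 genes that passed the test between stages below, and for Zfp42, which was even between embryos. The gene bodies lie at chr8:72319033-72321656 (Klf2, ENSMUSG00000055148.7), chr4:117757836-117765648 (Klf17, ENSMUSG00000048626.5) and chr8:43295063-43306980 (Zfp42, ENSMUSG00000051176.6). The sequences are the bases upstream of the RefSeq transcription start (GRCm38.p6), 5′ to 3′ on the gene's own strand, with motif matches in capitals. For Klf2 (plus strand, chr8:72318812-72319032) the last bases of the 250-base window are left out because GENCODE places them in the first exon. Klf17 is on the minus strand (chr4:117765667-117765916), and so is Zfp42 (chr8:43307010-43307259).
Klf2: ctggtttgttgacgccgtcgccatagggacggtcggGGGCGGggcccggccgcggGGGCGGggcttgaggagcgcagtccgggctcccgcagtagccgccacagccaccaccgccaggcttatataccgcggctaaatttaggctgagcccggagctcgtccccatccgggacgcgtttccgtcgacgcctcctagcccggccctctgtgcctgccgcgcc
Klf17: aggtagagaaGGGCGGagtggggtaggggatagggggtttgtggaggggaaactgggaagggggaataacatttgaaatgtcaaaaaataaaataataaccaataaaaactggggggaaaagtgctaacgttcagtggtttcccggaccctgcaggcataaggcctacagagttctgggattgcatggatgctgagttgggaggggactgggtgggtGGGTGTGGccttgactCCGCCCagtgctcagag
Zfp42: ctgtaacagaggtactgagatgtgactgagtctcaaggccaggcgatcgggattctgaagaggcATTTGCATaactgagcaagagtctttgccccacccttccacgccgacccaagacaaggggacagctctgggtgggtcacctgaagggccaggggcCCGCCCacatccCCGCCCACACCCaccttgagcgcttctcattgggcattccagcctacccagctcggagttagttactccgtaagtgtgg

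RefSeq promoters were at hand for 6 of the 10 genes, with 7 windows because Esrrb has 2 starts. Both strands were searched for 8 motifs. The GC box GGGCGG, bound by SP and KLF factors, occurred in the Klf2, Klf4, Klf17 and Zfp42 windows, and in 32.7% of all 32851 windows of the same length. Klf2 held it 214 and 195 bases before the start. The longer KLF box GGGTGTGG, found in 3.20% of all windows, occurred in Klf17 at 33 bases and in Zfp42 at 75 bases before the start, where it overlapped a GC box. The octamer ATGCAAAT, the sequence read by Oct4, occurred in Zfp42 at 186 bases before the start, on the other strand, and in 1.60% of all windows. The Tfcp2l1 window held the TATA box TATAAA at 28 bases, against 12.4% of all windows. None of the 7 windows held the ETS site CCGGAAGT (2.88% of all windows), the ESRRB site TCAAGGTCA (0.387%), the STAT site TTCCNGGAA (0.913%) or the SOX site ACAATG (10.7%). A match is a run of letters and not evidence of binding, and windows without one are silent about the factor.

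Klf2 encodes a Krüppel-like zinc-finger factor that can hold the naive state together with Klf4 and Klf5. It was at 27.2, 136 and 59.4 CPM in the 3 Alyref-cross WT/het morulae and at 18.9, 18.8 and 22.3 CPM in the 3 blastocysts of that cross. In the Gabpb1 cross it was at 14.2 and 19.2 CPM in the 2 WT/het morulae and at 31.0, 20.4 and 21.2 CPM in the 3 blastocysts. WT/het morulae thus lay above the blastocysts in the Alyref cross and below them in the Gabpb1 cross, without overlap in either. Klf2 was at 50.2 and 53.4 CPM in Alyref KO morulae, within the range of their WT/het group. The morulae labelled Gabpb1 KO had 28.6, 94.9 and 101 CPM, all above the 2 WT/het morulae of that cross. WT blastocysts had 19.9, 13.3 and 17.5 CPM.

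Klf17, a Krüppel-like factor best known as a marker of naive human pluripotent cells, had a similar profile at a lower level. It was at 22.7, 38.2 and 7.38 CPM in Alyref-cross WT/het morulae and at 2.39, 2.11 and 2.85 CPM in the blastocysts of that cross. In the Gabpb1 cross the 2 WT/het morulae had 2.28 and 3.80 CPM, and the 3 blastocysts had 2.31, 1.89 and 4.01 CPM. Here the stages overlapped, and the WT/het morulae of this cross sat at the level of blastocysts. Alyref KO morulae had 4.62 and 13.9 CPM, overlapping their WT/het group. Among the morulae labelled Gabpb1 KO the first had 2.58 CPM and the others 24.8 and 26.2 CPM, so this group also overlapped its WT/het group. The WT blastocysts held the 3 lowest values of the 19 embryos, 0.94, 1.22 and 0.67 CPM from 14, 19 and 10 counts.

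Klf4 encodes the Krüppel-like factor used in reprogramming and lies downstream of LIF and STAT3. Its levels were 11.8, 34.6 and 35.5 CPM in Alyref-cross WT/het morulae, 31.0 and 49.8 CPM in Alyref KO morulae and 14.1, 25.3 and 22.6 CPM in Alyref-cross blastocysts. The WT/het morulae overlapped both of the other groups, and the KO morulae lay above the blastocysts. In the Gabpb1 cross the WT/het morulae had 17.9 and 10.3 CPM and the morulae labelled KO 61.5, 46.7 and 29.9 CPM, with no overlap. Blastocysts had 34.7, 11.7 and 24.1 CPM in the Gabpb1 cross and 48.4, 33.3 and 37.0 CPM after WT parents.

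Klf5 is the Krüppel-like factor that both the trophectoderm and the inner cell mass need. It was at 193, 177 and 268 CPM in Alyref-cross WT/het morulae, at 138 and 154 CPM in Alyref KO morulae and at 410, 427 and 346 CPM in Alyref-cross blastocysts. These 3 groups did not overlap, with KO morulae lowest and blastocysts highest. In the Gabpb1 cross it was at 324 and 285 CPM in WT/het morulae and at 354, 334 and 284 CPM in blastocysts. The morulae labelled Gabpb1 KO ran from 148 through 239 to 438 CPM, on both sides of their WT/het group. WT blastocysts had 516, 420 and 400 CPM.

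Esrrb encodes an orphan nuclear receptor on the Tcf7l1 branch of the network. It was at 15.7, 18.4 and 17.9 CPM in Alyref-cross WT/het morulae and at 8.03, 9.12 and 9.58 CPM in the blastocysts of that cross. The Gabpb1-cross WT/het morulae had 4.91 and 1.67 CPM, below each of those, and the blastocysts of this cross had 8.89, 2.49 and 4.30 CPM. Morulae labelled Gabpb1 KO had 13.2, 16.5 and 5.82 CPM, all above their WT/het group. Alyref KO morulae had 12.1 and 18.8 CPM and WT blastocysts 15.5, 8.32 and 8.40 CPM.

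Tfcp2l1, which encodes a Grainyhead-family factor that responds to LIF, varied little. Group means lay between 226 ± 72.6 CPM (SD, n = 3) in WT blastocysts and 340 ± 105 CPM (SD, n = 3) in Alyref-cross WT/het morulae. The difference between those extremes was about as large as the spread within the groups. Alyref KO morulae had 302 and 352 CPM, and morulae labelled Gabpb1 KO had 324, 201 and 359 CPM. The Gabpb1-cross WT/het morulae, at 239 and 247 CPM, lay just under the blastocysts of that cross at 252, 265 and 258 CPM.

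Tbx3 encodes a T-box factor that supports self-renewal and is also made in primitive endoderm. Its levels were 52.3, 54.2 and 46.4 CPM in Alyref-cross WT/het morulae, 63.8 and 64.6 CPM in Alyref KO morulae and 29.1, 27.1 and 39.9 CPM in Alyref-cross blastocysts. Those groups did not overlap, and blastocysts were lowest. The Gabpb1-cross WT/het morulae had 36.7 and 36.6 CPM against 97.3, 49.3 and 62.2 CPM in morulae labelled KO, and the blastocysts had 38.5, 23.9 and 26.0 CPM. WT blastocysts had 51.4, 30.5 and 30.9 CPM. The antisense gene Tbx3os1 overlaps Tbx3 and held 3.27% as many counts, and whether the counting used strand is not given in the sources used here.

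Zfp42, the REX1 gene and a standard reporter of the naive state, had group means between 181 ± 62.2 CPM (SD, n = 2) in Gabpb1-cross WT/het morulae and 264 ± 25.2 CPM (SD, n = 3) in Alyref-cross blastocysts. The lower mean came from 137 CPM in the second of the 2 embryos, the other having 225 CPM. Alyref-cross WT/het morulae had 270, 259 and 254 CPM, and Alyref KO morulae had 194 and 267 CPM. Morulae labelled Gabpb1 KO had 300, 199 and 223 CPM, overlapping all other groups.

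Prdm14 encodes a regulator that restrains DNA methylation and FGF signalling and is needed for germ cells. It was at 3.04 and 0.333 CPM in Alyref KO morulae, from 23 and 5 counts, and at 4.72, 6.16 and 18.3 CPM in the WT/het morulae of that cross. Both KO embryos lay below the WT/het embryos. Morulae labelled Gabpb1 KO had 4.39, 0.74 and 9.58 CPM, on both sides of the 5.55 and 2.81 CPM of their WT/het group. All 9 blastocysts lay between 2.61 and 7.90 CPM.

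Dppa5a was at 1328 and 1028 CPM in the 2 Alyref KO morulae, the lowest values of the 19 embryos. The WT/het morulae of that cross had 1908, 2063 and 2519 CPM, the morulae labelled Gabpb1 KO 2432, 2299 and 2260 CPM and their WT/het morulae 2544 and 1789 CPM. Blastocysts were at 2404 to 3516 CPM in the Alyref cross and 2849 to 3291 CPM in the Gabpb1 cross. WT blastocysts had 3135, 3641 and 5965 CPM, the last being the highest of all embryos. The neighbouring copies Dppa5b and Dppa5c had the same counts as each other to within 7 in every embryo. Dppa5b had 6.94 to 7.69% of the Dppa5a count. Reads shared between copies could therefore move the Dppa5a values. The size of that error is not known, because the handling of reads that map to several places is not given.

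Blastocysts were compared with morulae among WT/het embryos of each cross. Embryos of both stages were taken at the same time after insemination, so the comparison is not a course over time. The morulae were those not yet blastocysts at that age, and the part of slow or failing development was not tested. In the Alyref cross 2 of the 10 genes passed the test, against 13.0% of the 18410 genes tested, and both were lower in blastocysts. Klf17 was lower by 3.22 on the log2 scale (SE 0.74, edgeR adjusted p = 0.0156) and Klf2 by 1.89 (SE 0.49, edgeR adjusted p = 0.0248). Both genes were lower in 3 of 3 blastocysts than in each of the 3 morulae. Klf5 stood at 0.89 on the log2 scale (SE 0.29, adjusted p = 0.0532) and Tbx3 at -0.67 (SE 0.28, adjusted p = 0.113), neither passing, and these 4 genes had an unadjusted p under 0.05 (31.1% of all genes). DESeq2 called Klf2, Klf5 and Klf17 (20.5% of all genes), and limma called the same 3 (14.1%). Klf5 was called higher under 6 of 14 alternatives, at an adjusted p of 0.0164 at the lowest, and had 0.49 and an adjusted p of 0.799 with spike-in scaling. The other 6 genes ranged from -1.45 for Prdm14 to 0.44 for Dppa5a, and the median of the 10 was -0.59 against -0.04 for all genes tested. In 5 of the 10 genes the 2 groups did not overlap, 1 higher and 4 lower in blastocysts, against 38.9% of all genes.

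Both calls were lost when single embryos were left out. Without the second Alyref-cross WT/het morula, which had the highest Klf2 and Klf17 of all, the log2 fold change was -1.08 for Klf2 (adjusted p = 0.176) and -2.58 for Klf17 (adjusted p = 0.0774). Without the first or the second blastocyst of that cross neither gene was called, although the log2 fold changes were -1.85 and -1.85 for Klf2 and -3.20 and -3.12 for Klf17. Calls over all genes went from 2402 to 423 and 442 there. Without the third blastocyst Klf17 was called and Klf2, at -1.97, was not.

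Summed trophectoderm markers were higher in blastocysts than in WT/het morulae of both crosses, whereas Klf2 and Klf17 were called lower in the Alyref cross alone. Cdx2, Gata3, Elf5, Eomes, Krt8, Krt18, Tfap2c and Dppa1 summed to 635, 595 and 2241 CPM in Alyref-cross WT/het morulae and to 4877 to 8006 CPM in the blastocysts of that cross. None of the 8 was at 3 counts or fewer in every embryo, which does not place each of them above that floor in every group. Krt8 and Krt18 were called higher, with Tfap2c called lower, between stages of the Alyref cross. A sum of CPM is weighted to its most abundant markers. The sum was 4727 and 3087 CPM in Gabpb1-cross WT/het morulae, above every other morula, and 4961 to 5840 CPM in the blastocysts of that cross. Among 6 oocyte mRNAs the sum ran from 3.35 to 10.6 CPM in morulae and from 0.802 to 2.21 CPM in blastocysts. The part of either list in the Klf2 and Klf17 results was not tested.

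Across the 10 morulae Klf17 decreased as the trophectoderm sum increased, with Pearson's r = -0.89 (permutation p = 0.00148, adjusted over the 10 genes 0.0148) and Spearman's rho = -0.88 (permutation p = 0.0014, adjusted 0.014) on the log2(CPM + 1) scale. Without the 2 morulae farthest from the median sum r was -0.88. Klf5 had the opposite sign, with r = 0.79 (permutation p = 0.00843, adjusted 0.0422), rho = 0.75 (permutation p = 0.0178, adjusted 0.0888) and r = 0.72 without the 2 farthest. Klf2 had r = -0.71 and rho = -0.70, which did not pass the correction (adjusted permutation p = 0.0869 and 0.0979), and r was -0.52 without the 2 farthest. These relations were chosen after the values had been seen, take in 4 groups and 2 crosses, and were not computed within a cross, since each has only 5 morulae. Among the 9 blastocysts no gene passed, with r = -0.16 for Klf17 and 0.37 for Klf5 (exact permutation p = 0.68 and 0.332).

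**Figure D3:**
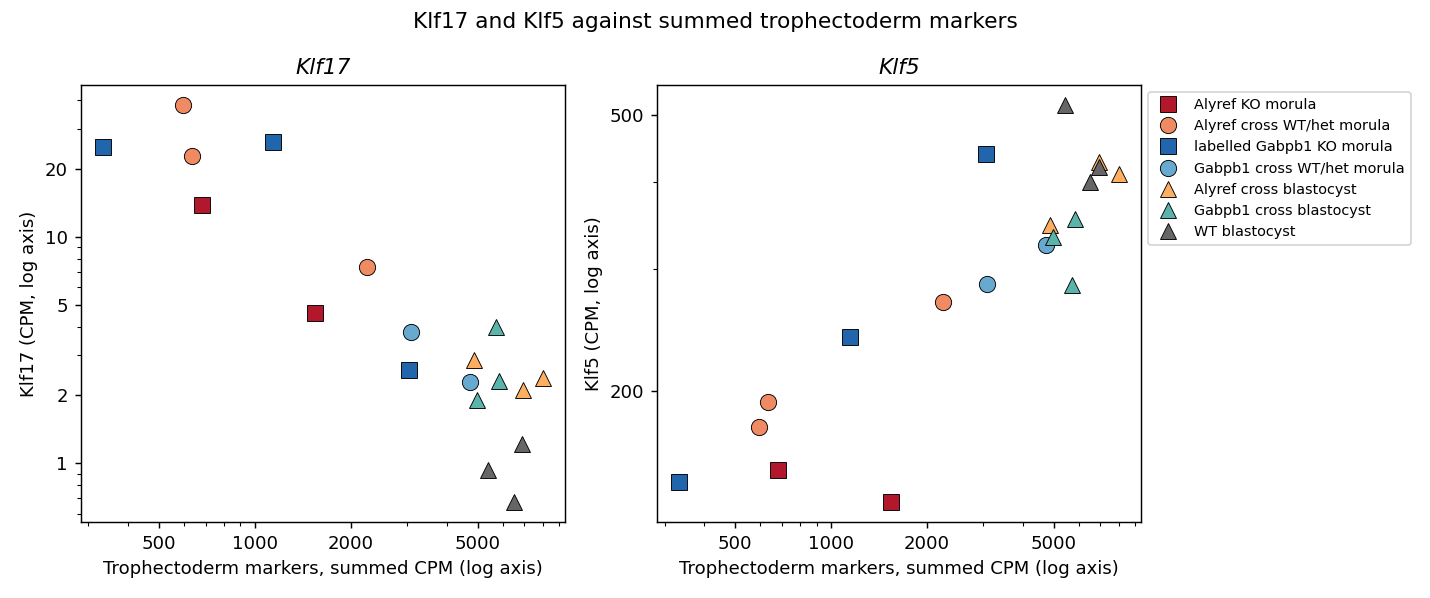
CPM of Klf17 (left) and Klf5 (right) in each embryo against the summed CPM of 8 trophectoderm markers, both axes logarithmic. Among morulae (squares and circles) Klf17 falls from 38.2 to 2.28 CPM and Klf5 rises as the sum increases, and blastocysts (triangles) cluster at the right.

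In the Gabpb1 cross no gene of the 10 passed between stages, and neither did any of the 18410 genes (0% called by edgeR). At an unadjusted p under 0.05 the count was 0 of the 10 genes (6.72% of all genes). DESeq2 and limma also called 0 of the 10 (0.311% and 0.0543% of all genes). The log2 fold changes ran from -0.31 for Tbx3 to 0.73 for Klf4, with a median of 0.38. Scaled to the gene counts 8 of the 10 were higher in blastocysts, whereas scaling to the spike-in put all 10 lower and moved the median of all genes to -0.86. Relative to that median the 10 genes' median was 0.42, and it was 0.36 with the main scaling. In 3 genes, Klf2, Tfcp2l1 and Dppa5a, blastocysts lay wholly above morulae, against 23.1% of all genes not overlapping.

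The stage effects of the crosses were also averaged and compared. For the mean of both crosses none of the 10 genes was called by edgeR (4.36% of all genes), and 4 had an unadjusted p under 0.05 (24.5% of all genes). DESeq2 called 1, Klf17 (12.9% of all genes), and limma 0 of the 10 (6.61% of all genes). Klf17 was at -1.68 (SE 0.53, adjusted p = 0.0722), Tbx3 at -0.49, Klf5 at 0.49 and Dppa5a at 0.47, the last 2 turning to -0.14 and -0.16 with spike-in scaling. The difference between the crosses' stage effects was 2.42 for Klf2 (SE 0.74, adjusted p = 0.231), 3.08 for Klf17 (SE 1.09, adjusted p = 0.266) and 1.63 for Esrrb (SE 0.74, adjusted p = 0.347) on the log2 scale. None passed (0.00543% of all genes called), so the call in one cross and not in the other was not shown to be a difference between them. DESeq2 and limma called 0 of the 10 there (1.83% and 0% of all genes).

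The WT/het morulae of the crosses were therefore set against each other. Klf17, Esrrb and Klf2 had the lowest log2 fold changes in Gabpb1-cross relative to Alyref-cross morulae, at -2.90 (SE 0.86, adjusted p = 0.0811), -2.39 (SE 0.59, adjusted p = 0.0504) and -2.15 (SE 0.58, adjusted p = 0.0634). None passed in edgeR, where 1.86% of all genes did, and 3 had an unadjusted p under 0.05 (22.4% of all genes). DESeq2 called those 3 genes (9.31% of all genes) and limma called Esrrb alone (3.71%). Leaving out the second Alyref-cross morula gave -1.34 for Klf2 and -2.26 for Klf17. For Esrrb the value was -3.37 without the first Gabpb1-cross morula and -1.82 without the second. The 2 Gabpb1-cross morulae were below each of the 3 Alyref-cross morulae in 5 genes, Klf2, Klf17, Esrrb, Tbx3 and Zfp42, and above them in Klf5, a total of 6 of 10 against 36.1% of all genes. The trophectoderm sums given above differed in the same embryos, and their part in these values was not tested.

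**Figure D4:**
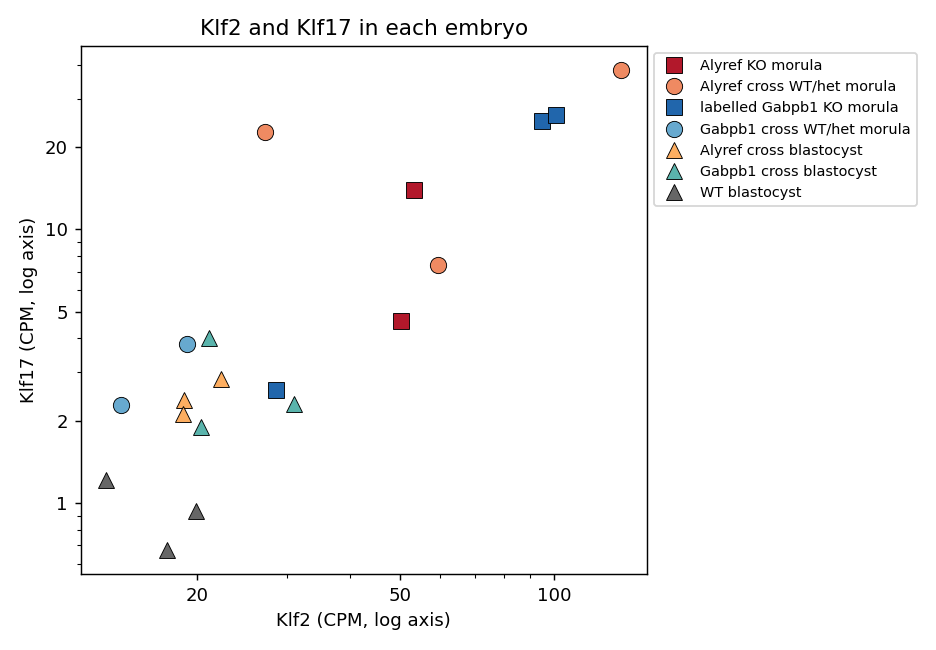
Klf17 against Klf2 CPM in each embryo, both axes logarithmic, coloured by group. The 2 Gabpb1-cross WT/het morulae and the first morula labelled Gabpb1 KO lie among or next to the blastocysts, and the other 7 morulae lie above every blastocyst in Klf17.

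Alyref KO morulae were compared with WT/het morulae of the same cross. None of the 10 genes was called by edgeR, where 0.228% of all genes were, and 2 had an unadjusted p under 0.05 (12.1% of all genes). Dppa5a stood at -0.88 on the log2 scale (SE 0.26, adjusted p = 0.166), lower in 2 of 2 KO embryos, and Prdm14 at -2.60 (SE 1.00, adjusted p = 0.295), also lower in both. The Prdm14 value was -4.84 without the first KO morula, -1.71 without the second and -1.76 without the third WT/het morula. DESeq2 called Dppa5a (adjusted p = 0.0448, 2.73% of all genes called) and limma called none of the 10 (0.891% of all genes). The remaining 8 genes ran from -1.29 for Klf17 to 0.57 for Klf4, all with an adjusted p of 0.552 or more. The median of the 10 was -0.35 against -0.04 for all genes tested, with 8 lower and 2 higher. KO and WT/het embryos did not overlap in 4 genes, Tbx3 above and Klf5, Prdm14 and Dppa5a below, against 24.9% of all genes.

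Morulae labelled Gabpb1 KO had higher values than the WT/het morulae of their cross for most of the network, but none of the 10 genes was called by edgeR (1.65% of all genes). The log2 fold changes were 2.55 for Klf17 (SE 0.85, adjusted p = 0.130), 2.16 for Klf2 (SE 0.58, adjusted p = 0.0696) and 1.84 for Esrrb (SE 0.58, adjusted p = 0.110). For Klf4 the value was 1.70 (SE 0.53, adjusted p = 0.108) and for Tbx3 0.93 (SE 0.32, adjusted p = 0.139). These 5 had an unadjusted p under 0.05, as did 18.9% of all genes. DESeq2 called 4 of them, Klf2, Klf4, Klf17 and Esrrb (6.99% of all genes), and limma called none (2.89% of all genes). With 9 genes higher and 1 lower the median was 0.67 against 0.06 for all genes, and scaling to the spike-in gave 6 higher and 4 lower. Groups did not overlap in 4 genes, Klf2, Klf4, Esrrb and Tbx3, against 32.2% of all genes.

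This comparison rests on the 2 WT/het morulae of the Gabpb1 cross, the same embryos that stood low in the comparison of crosses and between stages. Against the mean of the WT/het morulae of both crosses, a reference chosen after seeing the data, Klf2 was at 1.09, Klf4 at 1.23, Klf17 at 1.10, Esrrb at 0.64 and Tbx3 at 0.69, and no gene was called. Leaving out the first morula labelled KO, the one with low Klf2 and Klf17, gave 2.55 for Klf2 (adjusted p = 0.0175) and 3.07 for Klf17 (adjusted p = 0.0227), both called, with 5.25% of all genes called. Esrrb was at 2.81 without the first WT/het morula and at 1.26 without the second. The first morula labelled KO had a trophectoderm sum of 3056 CPM, and the other 2 had 333 and 1143 CPM. The part of those markers in the difference was not tested.

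**Figure D5:**
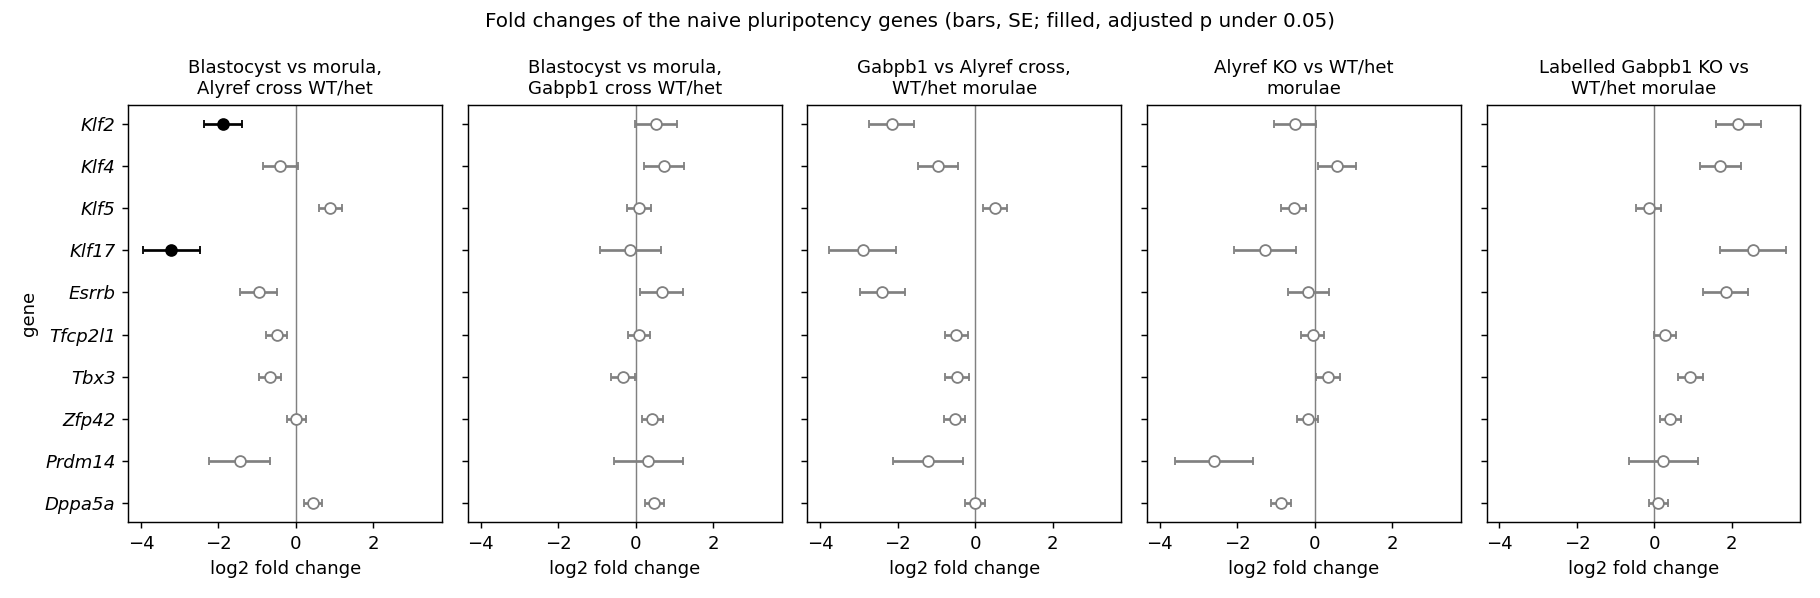
Log2 fold changes with SE (bars) of the 10 genes in 5 comparisons, filled where the edgeR adjusted p was under 0.05. Only Klf2 and Klf17 between stages of the Alyref cross are filled.

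The KO effects of the crosses were compared as an interaction. All 10 genes had a larger log2 fold change in the Gabpb1 than in the Alyref cross, with a median difference of 1.06 against 0.12 for all genes, and none was called by edgeR (0.907% of all genes). The difference was 3.84 for Klf17 (SE 1.16, adjusted p = 0.122), 2.84 for Prdm14 (SE 1.33, adjusted p = 0.296) and 2.68 for Klf2 (SE 0.79, adjusted p = 0.116). It was 1.999 for Esrrb (SE 0.78, adjusted p = 0.214) and 0.98 for Dppa5a (SE 0.36, adjusted p = 0.192). These 5 had an unadjusted p under 0.05, as did 16.8% of all genes. DESeq2 called Klf2 and Klf17 (4.87% of all genes) and limma called none of the 10 (1.47% of all genes).

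Non-KO blastocysts of each cross were set against WT blastocysts. No gene of the 10 passed and no gene of the 18410 did (0% called by edgeR in the Alyref cross and 0% in the Gabpb1 cross). DESeq2 and limma called 0 of the 10 genes in both. Over all genes DESeq2 called 0.0817% in the Alyref cross and 0.229% in the Gabpb1 cross, and limma 0.0272% and 0.0217%. Dppa5a was at -0.53 in the Alyref cross (SE 0.23) and -0.48 in the Gabpb1 cross (SE 0.23), the only gene of the 10 with an unadjusted p under 0.05 in either. The WT blastocysts are shared by both comparisons, and the third of them had the highest Dppa5a of all. Fold changes ran from -0.94 for Klf4 to 1.36 for Klf17 in the Alyref cross and from -1.03 for Esrrb to 1.54 for Klf17 in the Gabpb1 cross.

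Genes around the network were read from lists, and the counts are of genes called by edgeR, to be read against the 13.0% of all genes called between stages of the Alyref cross. Between stages of the Alyref cross Nanog (log2 fold change -1.95) and Pou5f1 (-0.80), which encodes Oct4, were lower in blastocysts. These are 2 of 3 core pluripotency factors. Of 15 tested naive and germline-linked genes 4 were called lower and none higher, with a list median of -0.24. The 4 were Dppa2 (-1.71), Zfp281 (-1.64), Dppa4 (-1.22) and Dppa3 (-1.21). The LIF and STAT3 pathway moved in both directions, with Lif (2.25) and Stat3 (1.80) higher and Pim1 (-2.56), a STAT3 target, lower among 9 genes. Among 11 tested other Krüppel-like factors Klf7 (2.68) and Klf6 (2.18) were called higher and none lower, opposite in sign to Klf2 and Klf17. By sign alone 4 of the 11 were higher and 7 lower, with a list median of -0.32. Of 12 tested close relatives of the other genes Yy2 (-1.68) and Khdc3 (-0.67) were called lower. None of 7 tested genes of the Wnt and GSK3 branch and none of 6 tested formative and primed genes was called.

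In the KO comparisons few genes were called anywhere, 0.228% in the Alyref and 1.65% in the Gabpb1 cross. In Alyref KO morulae Gdf3, which encodes a TGF-beta family ligand of pluripotent cells, fell by 3.67 on the log2 scale (SE 0.65, adjusted p = 0.037), the only gene called among these lists. The Gdf3 call was lost with spike-in scaling, with only the groups compared and without the first WT/het morula, where no gene was called. Calls are not given for fits without an Alyref KO morula, which leave 1 embryo in that group. None of the listed genes was called in morulae labelled Gabpb1 KO. Gdf3 also passed in the difference between KO effects (4.06), as did Khdc3 (1.54). Between the WT/het morulae of the crosses Nanog was lower in the Gabpb1 cross (-1.38) and Klf6 higher (2.64). In the Gabpb1 cross no listed gene was called between stages. Epiblast markers summed to 540 to 573 CPM in Alyref KO morulae and 390 to 641 CPM in their WT/het group. They summed to 216 to 404 CPM in morulae labelled Gabpb1 KO and 153 to 334 CPM in theirs. The sums are weighted to the most abundant markers. Gene by gene, 4 of the 5 tested were lower and 1 higher in Alyref KO morulae, with a median log2 fold change of -1.18. In morulae labelled Gabpb1 KO 3 were higher and 2 lower, with a median of 0.39.

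For each of the 10 genes the most similar profiles were sought over all 19 embryos among 8368 genes with a mean of 5 FPKM or more, by Pearson's r of log2(CPM + 1). All points share the stages and groups, so these values describe the profiles and carry no p. Klf17 was most like Usp33 (r = 0.95) and Hdac1 (0.94), and Klf2 most like Rap1a (0.92) and Gm9392 (0.91). For Rap1a the r with Klf2 was 0.93 within the 10 morulae and 0.27 within the 9 blastocysts. Klf5 was most like Fmnl2 (0.97) and Golga4 (0.94), with Fmnl2 at 0.96 within morulae and 0.89 within blastocysts. Esrrb was most like Eif1ad (0.83) and Zc3h15 (0.81), Tbx3 like Zc3h15 (0.88) and Gata6 (0.85), a primitive endoderm factor, and Zfp42 like Rpl36al (0.85) and Cdc5l (0.84). Tfcp2l1 was most like Suox (0.80) and Ercc6l (0.77), Klf4 like Gm5928 (0.77) and Gm27553 (0.75), and Prdm14 like Gm14536 (0.72) and Uba1 (0.71). The nearest profiles to Dppa5a were its copies Dppa5c and Dppa5b, both at 1.00.

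Correlations between the 10 genes were computed within each stage, over the embryos of all its groups. Of 45 pairs, 4 had a permutation p under 0.05 in morulae and 7 in blastocysts, and none passed the correction over the 45 pairs of its stage. Klf2 and Klf17 had r = 0.78 over the 10 morulae (permutation p = 0.0107, adjusted 0.348), rho = 0.84 (permutation p = 0.00338, adjusted 0.152) and r = 0.64 without the 2 farthest. Esrrb and Tbx3 had r = 0.81 over the 9 blastocysts (exact permutation p = 0.00842, adjusted 0.216), rho = 0.83 (exact permutation p = 0.00827, adjusted 0.372) and r = 0.84 without the 2 farthest. Klf4 and Tbx3 had r = 0.70 in morulae and 0.67 in blastocysts (permutation p = 0.0232 and exact permutation p = 0.0476), and r was 0.23 in blastocysts without the 2 farthest.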

How the data were processed

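PolyA RNA of 19 single embryos was amplified as cDNA over 16 PCR cycles, per the labels' protocols, and sequenced without molecular identifiers, so counts are not independent molecules and the floor of 3 counts covers counting error only; SE and p-values take in the spread between embryos. The authors deposited raw counts per gene, as whole numbers with differing totals, although the table was announced as FPKM; the deposited table also gives exon length as another column. Per the submitters' processing notes Trimmomatic, Trim Galore, cutadapt, STAR, featureCounts and mm10 were used; strand, multi-mapping and annotation are not given in the sources used here. The genes and lists were chosen with earlier results of these data known.

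A gene was tested at 1 FPKM or more in at least 2 embryos (18410 of 39262 genes with counts). edgeR 4.0.16 in R 4.3.3 fitted one mean per group to all 19 embryos with TMM scaling and its quasi-likelihood F test, checked on simulated counts. P-values were adjusted by Benjamini-Hochberg over all tested genes and called under 0.05. Adjusted p-values are from this test unless DESeq2 1.42.0 or limma 3.58.1 is named. SE is the log2 fold change over the root of F. CPM used TMM-scaled gene totals. FPKM was planned as the deposited unit, and edgeR replaced limma once counts were found. A gene's fold change is given where it was called or had an unadjusted p under 0.05, and in other cases as a level or range. Listed genes are named where called, at most 4 a list by size of change, and likeness names 2 genes each. Alternatives were RLE and spike-in scaling, DESeq2, limma, other filters, only the groups compared, a replicate block and single embryos left out. Genomic positions follow GRCm38, whose starts and ends matched for 50604 genes. Promoters are from RefSeq.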

Additional observations from a re-analysis of the deposited data

How the results depend on the processing

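The values here are numbers of the 10 genes called, out of the same comparisons. For Alyref KO morulae DESeq2 called 1 (Dppa5a, 2.73% of all genes) where edgeR called 0 (0.228%). For morulae labelled Gabpb1 KO DESeq2 called 4 (6.99% of all genes, against 1.65% by edgeR). Leaving out single embryos with that label gave 0 to 2, the 2 without the first (5.25%). Between stages of the Alyref cross the 2 calls (13.0% of all genes) became 1 with spike-in scaling (1.91%) and 0 with only the groups compared (0.13%). Leaving out single embryos gave 0 to 3, the 3 without the third morula, where 24.8% of all genes were called. For the mean stage effect spike-in scaling and DESeq2 each called 1 (Klf17, with 6.63% and 12.9% of all genes called). Leaving out single embryos from groups of 3 gave 0 to 1, the 1 without the third Alyref-cross morula (15.9%). Between WT/het morulae of the crosses RLE scaling called 1 (2.05% of all genes), DESeq2 3 (9.31%), limma 1 (3.71%) and no filter 2 (1.02%). Leaving out single Alyref-cross morulae gave 0 to 3. The 3 came without the third, where 13.2% of all genes were called, against 1.86% with all embryos. With the replicate block 1 was called there (Esrrb) and no other count moved by over 1.5 times. Deviations of embryos with the same number correlated between -0.16 and 0.17, which shows no strong pairing by number and cannot exclude a weak one. For the difference between KO effects DESeq2 called 2 (4.87% of all genes). Leaving out single embryos from groups of 3 gave 0 to 2, the 2 without the first morula labelled Gabpb1 KO (2.64%, against 0.907% with all embryos). With spike-in scaling the mean stage effect turned to -0.14 for Klf5 and -0.16 for Dppa5a, below 0 on the log2 scale.

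Over 28 fold changes of single genes and 438 alternatives, 394 kept their side of the threshold and direction, 10 lost a call, 32 gained one (6 of them Klf5 between stages of the Alyref cross) and 2 reversed. Spike-in scaling moved the median of all genes to -0.61 for the mean stage effect, -0.34 and -0.86 in the Alyref and Gabpb1 crosses, -0.40 for the Gabpb1 KO comparison and 0.39 between crosses. The causes were not tested. Esrrb and Prdm14 did not pass a filter of 5 FPKM and have no value under it. Groups of 2 or 3 embryos, and 5 counts of Prdm14 in 1 library, limit the precision.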
